A study of Mus musculus with 16 samples.

Results

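The genes described here are 10 genes of the integrated stress response and the unfolded protein response, of 54752 gene IDs counted in mouse inguinal white adipose tissue (iWAT), a subcutaneous fat depot. They were taken by name from a list of stress response genes: Atf4, Ddit3, Trib3, Asns, Chac1 and Sesn2 for the integrated stress response (6 genes), and Hspa5, Xbp1, Dnajb9 and Herpud1 for the unfolded protein response (4 genes). The rule names the genes and uses no measured value, and all 10 genes passed the filter on low counts. RNA sequencing covered 4 genotypes with 4 libraries each (WT, Lepob/+, SOD1G93A, SOD1G93A-Lepob/+), 16 in all, and the labels give C57BL/6 females of 90 days. Lepob/+ mice carry 1 ob allele of leptin, the hormone that fat cells release in proportion to fat mass. SOD1G93A mice carry a high copy number transgene of mutant human SOD1, a model of amyotrophic lateral sclerosis that is not restricted to motor neurons. SOD1G93A-Lepob/+ mice carry both, and WT mice neither. The study asked which genes and pathways of the fat depot differ with the transgene, and what lower leptin does to them.

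In the integrated stress response, kinases that sense amino acid shortage, misfolded protein, haem deficiency or viral RNA phosphorylate the translation factor eIF2alpha. Most protein synthesis then falls, while the mRNA of ATF4, a transcription factor, is translated more, and ATF4 with its partners drives genes of amino acid supply and of recovery or cell death. The unfolded protein response is the matching program of the endoplasmic reticulum (ER), with the sensors PERK, IRE1 and ATF6, and PERK is also an eIF2alpha kinase, which joins both programs. Secretory cells, fat cells among them since they release leptin and adiponectin, depend on ER folding capacity. Gene counts follow mRNA amount, so they do not show the translation of Atf4 mRNA or the splicing of Xbp1 mRNA by IRE1.

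Promoters of 5 of the 10 genes hold letters that the factors of these programs are known to bind, and their windows are shown to place them beside the RefSeq start site. Each window was taken from RefSeq (GRCm38.p6), runs 5′ to 3′ on the gene's strand from 250 bases before the start to 30 bases after it, and was searched on both strands over the 300 bases of the RefSeq table. The motifs were CARE (TGATGNAA), where ATF4 pairs with a C/EBP protein, ERSE (CCAAT and CCACG with 9 free bases between) and ERSE-II (ATTGG and CCACG with 1 free base between), read by ATF6 and XBP1, and the core of UPRE (TGACGTGG), read by XBP1. Capitals mark the fixed letters of a match. In Asns the CARE lies on the gene's strand, and in Trib3, Chac1 and Herpud1 it lies on the other strand, where it reads TTNCATCA. The ERSE forms lie on the gene's strand.

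Asns (chr6:7693180-7693459, minus strand): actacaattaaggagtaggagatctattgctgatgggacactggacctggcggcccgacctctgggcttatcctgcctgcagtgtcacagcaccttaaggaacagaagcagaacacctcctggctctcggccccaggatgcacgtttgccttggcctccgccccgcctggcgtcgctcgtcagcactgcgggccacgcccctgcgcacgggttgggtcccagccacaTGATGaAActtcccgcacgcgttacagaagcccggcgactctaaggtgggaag
Trib3 (chr2:152344031-152344310, minus strand): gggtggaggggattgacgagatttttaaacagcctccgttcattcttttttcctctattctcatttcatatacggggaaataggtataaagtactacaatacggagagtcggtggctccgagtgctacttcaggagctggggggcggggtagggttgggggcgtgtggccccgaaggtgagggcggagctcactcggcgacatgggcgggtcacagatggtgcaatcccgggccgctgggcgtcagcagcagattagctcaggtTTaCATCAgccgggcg
Chac1 (chr2:119350992-119351271, plus strand): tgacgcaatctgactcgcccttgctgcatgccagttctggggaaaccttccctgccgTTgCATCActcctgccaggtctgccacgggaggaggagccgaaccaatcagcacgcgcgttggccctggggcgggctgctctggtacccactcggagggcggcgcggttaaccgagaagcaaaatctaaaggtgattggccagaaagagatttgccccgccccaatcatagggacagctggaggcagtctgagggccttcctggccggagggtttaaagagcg
Hspa5 (chr2:34771840-34772119, plus strand): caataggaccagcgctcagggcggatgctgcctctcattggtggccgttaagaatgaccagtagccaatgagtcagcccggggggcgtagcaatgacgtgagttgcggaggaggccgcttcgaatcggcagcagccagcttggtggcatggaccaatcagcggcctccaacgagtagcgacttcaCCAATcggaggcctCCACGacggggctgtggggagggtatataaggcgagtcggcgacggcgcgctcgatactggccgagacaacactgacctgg
Herpud1 (chr8:94386179-94386458, plus strand): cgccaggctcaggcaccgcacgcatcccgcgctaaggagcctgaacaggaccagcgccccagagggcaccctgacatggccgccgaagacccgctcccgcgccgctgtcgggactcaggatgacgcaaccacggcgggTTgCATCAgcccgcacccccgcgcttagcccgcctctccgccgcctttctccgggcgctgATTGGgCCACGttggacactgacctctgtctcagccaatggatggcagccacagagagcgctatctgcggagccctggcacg

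With the first base of the RefSeq transcript as +1, the CARE of Asns stood at -23 to -16, that of Chac1 at -193 to -186 and that of Trib3 at +15 to +22. Hspa5 held an ERSE at -65 to -47. Herpud1 held an ERSE-II at -52 to -42 and a CARE at -112 to -105. The GENCODE genes, whose coordinates are given with each gene, start at other bases. Counted from those starts, the CARE of Trib3 lay before the gene (-14 to -7), while the CARE of Asns (+23 to +30) and the ERSE of Hspa5 (+56 to +74) lay inside it. The matches of Chac1 (-180 to -173) and Herpud1 (-61 to -51 and -121 to -114) lay before the gene by both starts. Among all 32851 promoter windows of the table, 3.97% held a CARE, 0.119% an ERSE, 0.0365% an ERSE-II and 0.676% a UPRE core, so the ERSE forms were the rarer letters. The windows of Atf4, Ddit3, Sesn2, Xbp1 and Dnajb9 held none of these letters, which says only that the letters are not in those windows. A match is a description of sequence and not a measured binding site.

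The libraries held 36.8 to 61.9 M gene counts (M for mega), and the members had from 104 counts (Chac1) to 18179 counts (Hspa5) per library. Library content differed in ways that cut across genotype. The library of Lepob/+ replicate 4 carried skeletal muscle RNA, with a summed level of 10 muscle markers of 179300 CPM (counts per M, TMM-scaled), against 4510 CPM in WT replicate 3 and 7.165 to 274.9 CPM in the other 14. A list of 6 markers for the stroma and high endothelial venules of lymph nodes separated 6 libraries (WT replicates 1 and 2, Lepob/+ replicate 3, SOD1G93A replicates 1, 2 and 4), at 497.5 to 1063 CPM summed, from 10 libraries at 3.952 to 46.72 CPM. In those 10 libraries Chst4 was at 0, and Glycam1 was at 0 in all but Lepob/+ replicate 1. The library labelled SOD1G93A-Lepob/+ replicate 3 lacked Xist and had counts of Y-linked genes, although its mouse is labelled female. The ob mutation leaves Lep mRNA in place and the transgene is human, so neither gene checks the labels here: Lep ranged from 180.7 to 687.2 CPM in Lepob/+ and from 202.3 to 681.5 CPM in WT. Mature adipocyte markers (8 genes) were present in every library, at 13450 to 30470 CPM summed.

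Per kilobase of exon, 3 of the ER genes and Atf4 were the abundant members. Median levels over the 16 libraries were 79.4 FPKM for Hspa5, 72.6 for Xbp1, 63.9 for Atf4 and 30.2 for Herpud1. The others followed with 15.9 FPKM for Asns, 12.95 for Dnajb9, 10.5 for Ddit3, 6.77 for Sesn2, 5.69 for Trib3 and 2.42 for Chac1. Neighbours in this order overlapped over the libraries: Hspa5 ranged from 33.8 to 105.1 FPKM, Xbp1 from 44.7 to 94.6 and Atf4 from 34.4 to 116.1. The steadiest member was Ddit3, whose highest library was 1.58 times its lowest, and the least steady was Chac1, at 59.3 times. Leaving out Lepob/+ replicate 4, Chac1 ranged from 2.33 to 8.35 CPM.

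**Figure D1:**
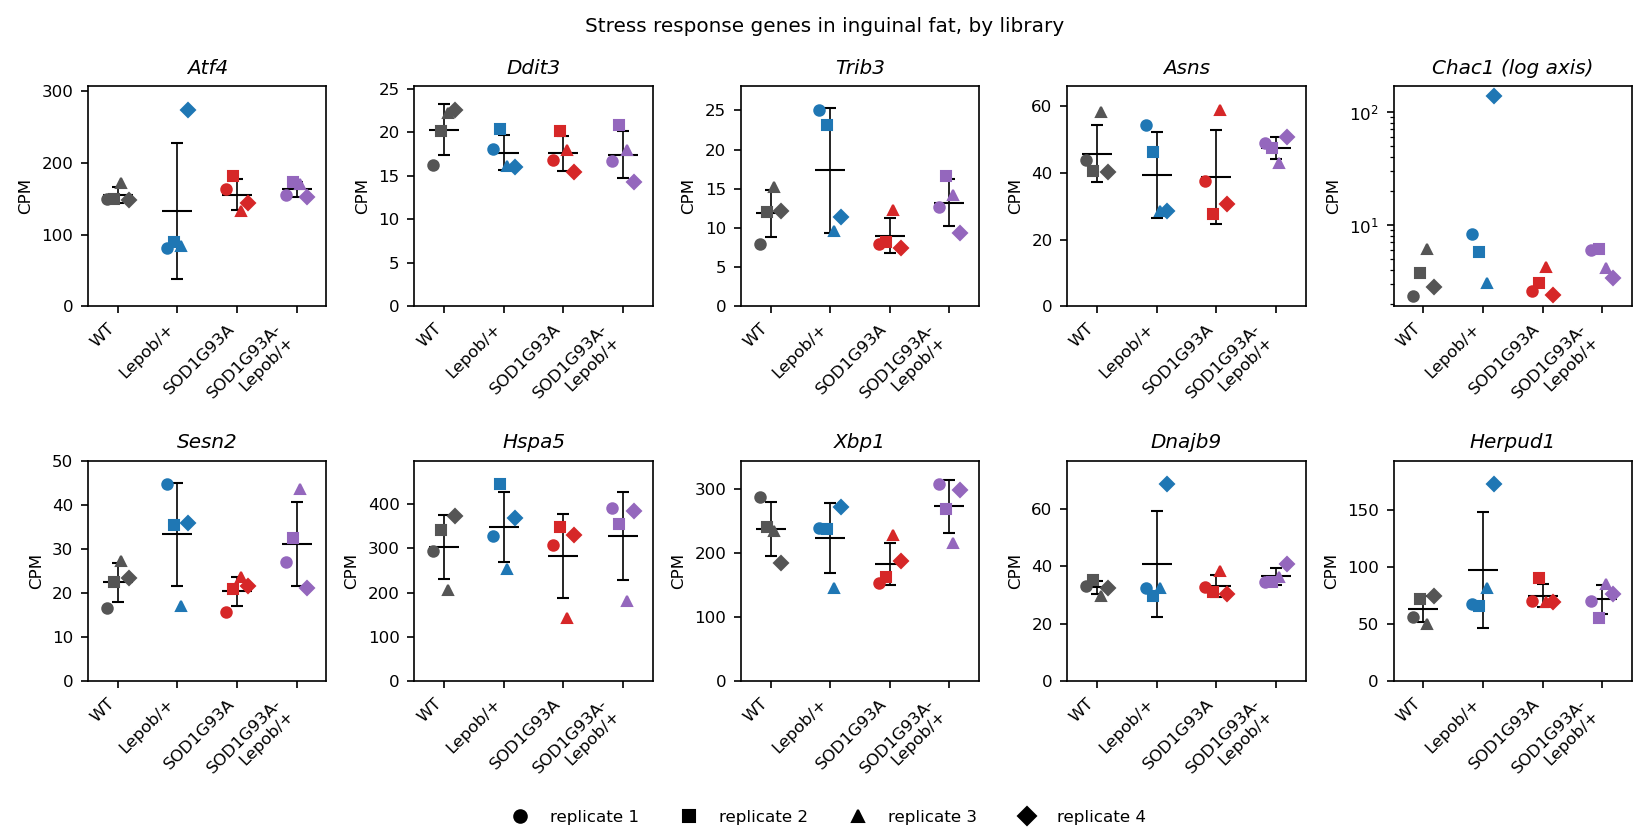
Level of each of the 10 genes by library, in TMM-scaled counts per M, CPM (vertical axis, log scale for Chac1) for the 4 genotypes (horizontal axis), with markers by replicate number and bars for mean and SD (none for Chac1). Atf4 in Lepob/+ replicates 1 to 3 sits between 80.99 and 90.26 CPM, under all 12 libraries of the other genotypes, and Chac1 in Lepob/+ replicate 4 stands at 138.3 CPM.

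No comparison of genotypes called any of the 10 genes. In edgeR's quasi-likelihood test with Benjamini-Hochberg adjustment, 0 members and 0% of the 19736 genes tested passed an adjusted p of 0.05 in each of 6 comparisons. The counts at an unadjusted p under 0.05 are therefore given as a description. They were 2 members (Chac1 and Herpud1) for Lepob/+ against WT, beside 4.37% of all genes, and 0 members for SOD1G93A against WT, beside 2.56%. For SOD1G93A-Lepob/+ they were 2 members against SOD1G93A (Xbp1 and Sesn2, beside 16.5% of all genes), 1 against Lepob/+ (Chac1, beside 8.24%) and 0 against WT (beside 4.74%). For the interaction of both mutations it was 1 member (Xbp1), beside 7.98%. These counts moved when single libraries were left out. For Lepob/+ against WT the members were 4 without Lepob/+ replicate 3 and 1 without Lepob/+ replicate 4 or WT replicate 1, and the genes ran from 341 (without Lepob/+ replicate 4) to 2295 (without Lepob/+ replicate 3) beside 862 with all libraries. The 1 member without Lepob/+ replicate 4 was Atf4, with a negative value, in place of Chac1 and Herpud1. For SOD1G93A against WT the members were 2 without SOD1G93A replicate 3 and 1 without WT replicate 1 or 4, and the genes ran from 217 (without SOD1G93A replicate 2) to 1541 (without SOD1G93A replicate 3) beside 505. For SOD1G93A-Lepob/+ against SOD1G93A the members were 4 without SOD1G93A replicate 3 and 1 without any of SOD1G93A replicates 1, 2 and 4 and SOD1G93A-Lepob/+ replicates 2 and 3, and the genes ran from 1473 to 5635 (without SOD1G93A replicates 2 and 3) beside 3261. Against Lepob/+ it stayed 1 member, which was Atf4 in place of Chac1 without Lepob/+ replicate 4. The genes of that comparison ran from 1057 to 2477 beside 1626. Against WT it was 1 member without WT replicate 1 (436 genes) or SOD1G93A-Lepob/+ replicate 4 (558 genes). The genes against WT ran from 436 to 1456 beside 935. For the interaction it ranged from 0 to 3 members, the highest without Lepob/+ replicate 2, with 2394 genes. The genes of the interaction ran from 751 to 3258 beside 1574. No member had groups without overlap in any pair of genotypes. Over all genes the share without overlap was 0.907% for Lepob/+ against WT and 2.06% for SOD1G93A against WT, and for SOD1G93A-Lepob/+ it was 7.18% against SOD1G93A, 2.35% against Lepob/+ and 3.64% against WT. DESeq2 on all libraries called 0 members. DESeq2 on the compared genotypes called 1, Xbp1 in SOD1G93A-Lepob/+ against SOD1G93A, where it called 1771 genes in all. The comparisons share libraries, so their values are not independent of each other.

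Atf4 (ENSMUSG00000042406, chr15:80255184-80257541, plus strand, GRCm38) encodes the transcription factor at the centre of the integrated stress response. Its level was 149.5, 149.7, 171.6 and 147.7 CPM in WT replicates 1 to 4. In Lepob/+ it was 80.99, 90.26, 84.04 and 273.7 CPM. Lepob/+ replicates 1 to 3 were thus the lowest of all 16 libraries, and replicate 4, the library with muscle RNA, was the highest. SOD1G93A libraries had 163.7, 181.5, 132.2 and 144.4 CPM, and SOD1G93A-Lepob/+ libraries had 155.6, 173.3, 170.2 and 151.6 CPM. Both SOD1G93A genotypes overlapped WT, with means of 155.4 ± 21.6 and 162.7 ± 10.7 CPM beside 154.6 ± 11.3 CPM (SD, n = 4).

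The low Atf4 of Lepob/+ replicates 1 to 3 (85.1 ± 4.72 CPM, SD, n = 3) was there in libraries low in lymph node markers (replicates 1 and 2) and in the library high in them (replicate 3). It also did not rest on the scaling: in CPM of total counts, without TMM, these libraries had 81.1 to 91.3, against 123.7 to 194.7 in the other genotypes. The rank of replicate 4 did rest on it. TMM gave that library a factor of 0.664, which raised its scaled values, and in CPM of total counts its Atf4 was 181.4, second to SOD1G93A replicate 2 at 194.7. With all 4 libraries the log2 fold change of Lepob/+ against WT was -0.23 (SE 0.32, edgeR adjusted p = 1.00). Without Lepob/+ replicate 4 it was -0.88, with an edgeR adjusted p of 0.0731. SOD1G93A-Lepob/+ against Lepob/+ gave 0.30 (SE 0.32, edgeR adjusted p = 0.797) with all libraries and 0.94 (edgeR adjusted p = 0.0359) without replicate 4, where Atf4 passed the threshold. With SOD1G93A-Lepob/+ replicate 3 left out as well, this value was 0.92 and the edgeR adjusted p 0.0608. A split of this kind, with these 3 libraries under the other 13, was found in 24 of 19736 genes (0.122%), and the opposite split in 8 (0.0405%). That pattern was looked for after the Atf4 values had been seen.

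**Figure D2:**
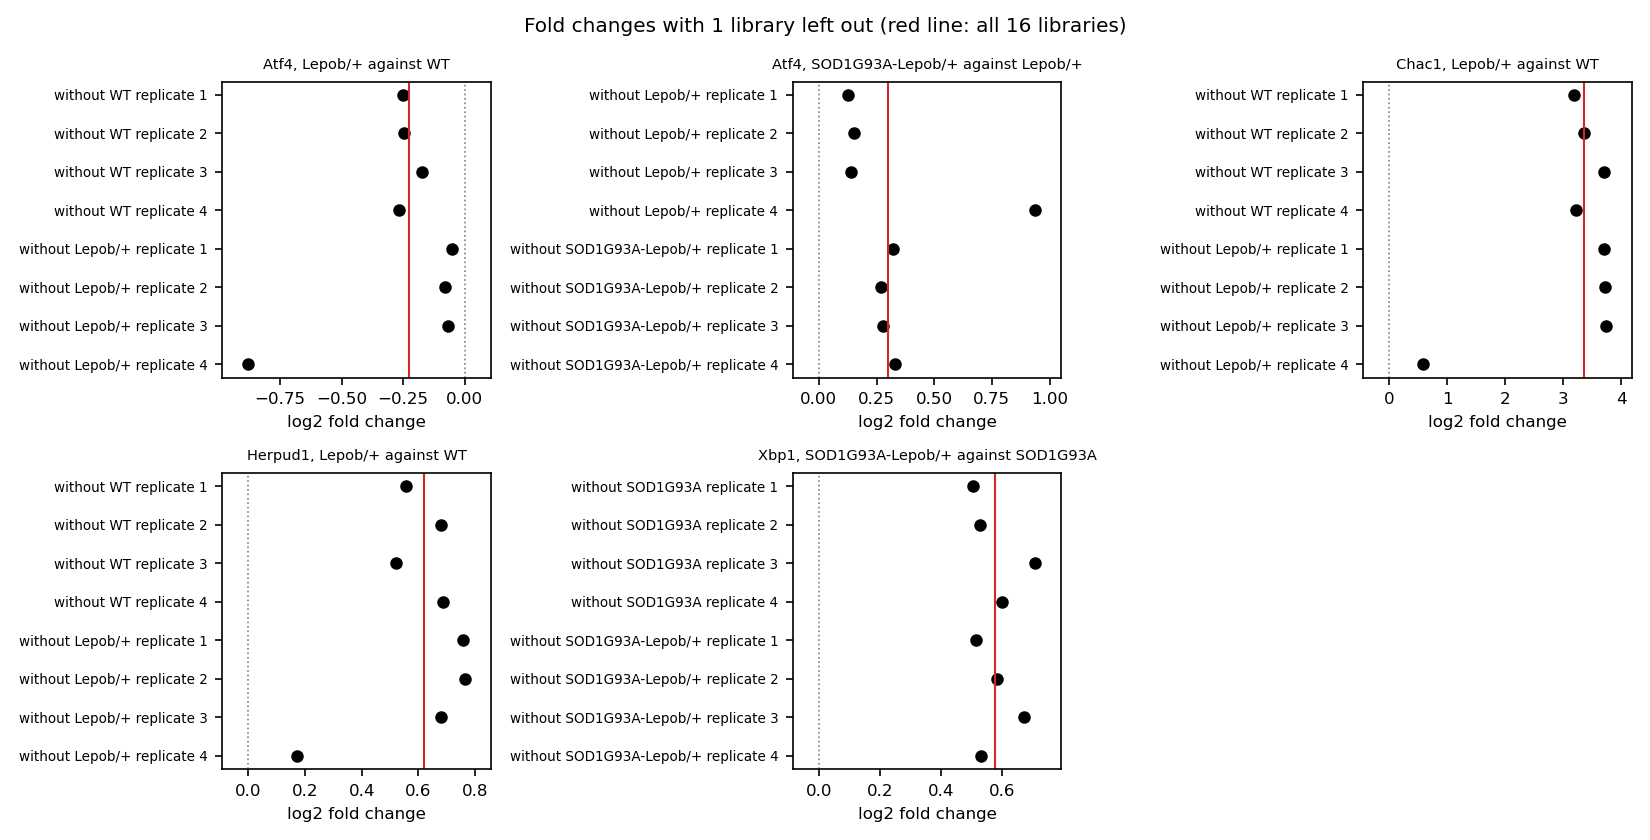
Log2 fold change (horizontal axis) refitted with 1 library left out at a time (points, one row per library left out), for 5 combinations of gene and comparison. The red line is the value with all 16 libraries and the dotted line is 0. Leaving out Lepob/+ replicate 4 moves Atf4 to -0.88 against WT and Chac1 from 3.36 to 0.58, while Xbp1 stays between 0.51 and 0.71.

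Ddit3 (ENSMUSG00000025408, chr10:127290774-127296288, plus strand) encodes CHOP, the factor that links prolonged ER stress to cell death. WT libraries had 16.22, 20.08, 22.24 and 22.58 CPM, and Lepob/+ libraries 18.02, 20.36, 16.15 and 16.02 CPM. SOD1G93A libraries had 16.80, 20.10, 17.90 and 15.40 CPM, and SOD1G93A-Lepob/+ libraries 16.69, 20.76, 17.98 and 14.27 CPM. All 3 mutant genotypes had means between 17.4 and 17.6 CPM and overlapped WT (20.3 ± 2.93 CPM). The log2 fold changes against WT were -0.20 for Lepob/+, -0.21 for SOD1G93A and -0.22 for SOD1G93A-Lepob/+ (SE 0.15 each), with edgeR adjusted p from 0.951 to 1.00. A second gene ID with the symbol Ddit3 lies inside the first exons on the same strand and had exactly 1 count in every library, so reads that overlap both may be missing from these counts. The 3′ end of Ddit3 overlaps the gene Mars on the other strand.

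Trib3 (ENSMUSG00000032715, chr2:152337422-152344032, minus strand) encodes a pseudokinase that ATF4 and CHOP switch on and that feeds back on them. Its levels were 7.985, 12.09, 15.26 and 12.11 CPM in WT and 25.10, 23.15, 9.643 and 11.46 CPM in Lepob/+. They were 7.973, 8.267, 12.36 and 7.457 CPM in SOD1G93A and 12.73, 16.66, 14.17 and 9.409 CPM in SOD1G93A-Lepob/+. Lepob/+ replicates 1 and 2 were above every other library, and by TMM-scaled CPM the same genotype's other libraries lay within the WT range. In CPM of total counts Lepob/+ replicate 4 had 7.594, rank 16 in place of 10, under the 7.996 of the lowest library of the other genotypes. The log2 fold change was 0.55 (SE 0.31, edgeR adjusted p = 1.00) for Lepob/+ against WT, which was 0.31 without Lepob/+ replicate 1. It was 0.55 (SE 0.31, edgeR adjusted p = 0.377) for SOD1G93A-Lepob/+ against SOD1G93A. The latter was 0.10 with the lymph node markers as a covariate.

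Sesn2 (ENSMUSG00000028893, chr4:132492032-132510501, minus strand) encodes sestrin 2, a leucine sensor that restrains the growth kinase mTORC1. WT libraries had 16.63, 22.62, 27.20 and 23.45 CPM, and Lepob/+ libraries 44.73, 35.59, 17.07 and 35.97 CPM. SOD1G93A libraries had 15.65, 20.85, 23.58 and 21.52 CPM, and SOD1G93A-Lepob/+ libraries 27.01, 32.43, 43.76 and 21.26 CPM. By TMM-scaled CPM, 3 of 4 libraries in both genotypes with an ob allele stood above the highest library of the matching genotype without it. The remaining 1 lay in its range. In Lepob/+ this count rested on the scaling of replicate 4, the library with muscle RNA. In CPM of total counts its Sesn2 was 23.84, rank 9 in place of 3. It then lay under WT replicate 3 (1080 of 45.3 M counts beside 1053 of 39.7 M). The log2 fold change was 0.57 (SE 0.28, edgeR adjusted p = 1.00) for Lepob/+ against WT. It was 0.61 (SE 0.28, edgeR adjusted p = 0.295) for SOD1G93A-Lepob/+ against SOD1G93A, and 0.40 (edgeR adjusted p = 0.534) without SOD1G93A-Lepob/+ replicate 3, the library with counts of Y-linked genes and the highest Sesn2 of its genotype.

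The split by lymph node markers ran along the same values. Sesn2 had 15.65 to 22.62 CPM in the 6 libraries high in lymph node markers, with a median of 19.0 CPM, and a median of 29.8 CPM in the 10 low ones. All 4 SOD1G93A-Lepob/+ libraries were low in these markers and 3 of 4 SOD1G93A libraries were high. The remaining SOD1G93A library, replicate 3, had a Sesn2 level of 23.58 CPM, within the SOD1G93A-Lepob/+ range. With the marker level as a covariate the log2 fold change of SOD1G93A-Lepob/+ against SOD1G93A was 0.18. In whole tissue, fewer cells of a type and less RNA per cell cannot be told apart. The part of lymph node tissue in these differences was not tested beyond this covariate.

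Asns (ENSMUSG00000029752, chr6:7675169-7693254, minus strand) encodes asparagine synthetase, a classical ATF4 target of amino acid supply. Levels were 43.91, 40.67, 58.14 and 40.27 CPM in WT and 54.26, 46.12, 28.71 and 28.61 CPM in Lepob/+. SOD1G93A libraries had 37.48, 27.58, 58.92 and 30.75 CPM, and SOD1G93A-Lepob/+ libraries 48.90, 47.34, 43.08 and 50.67 CPM. By TMM-scaled CPM SOD1G93A held both the lowest and the highest library of all 16, and its highest, replicate 3, was the one low in lymph node markers. In CPM of total counts the lowest was Lepob/+ replicate 4, at 18.96, and the highest was WT replicate 3, at 56.74. Over all genotypes the median was 34.1 CPM in the 6 libraries high in these markers and 48.1 CPM in the 10 low ones. No comparison reached an unadjusted p under 0.05 for Asns in edgeR, and the log2 fold changes of the pairs of genotypes lay between -0.24 and 0.30.

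Chac1 (ENSMUSG00000027313, chr2:119351229-119354381, plus strand) encodes an enzyme that degrades glutathione and is a target of ATF4. Its levels were 2.332, 3.778, 6.147 and 2.803 CPM in WT and 8.347, 5.817, 3.060 and 138.3 CPM in Lepob/+. SOD1G93A had 2.601, 3.049, 4.264 and 2.401 CPM, and SOD1G93A-Lepob/+ 5.955, 6.146, 4.127 and 3.370 CPM. A single library, Lepob/+ replicate 4 with its muscle RNA, was 16.6 times the next highest, and 10.97 times in CPM of total counts. The log2 fold change of Lepob/+ against WT was 3.36 (SE 0.96, edgeR adjusted p = 1.00), and 0.58 without that library. SOD1G93A-Lepob/+ against Lepob/+ gave -2.98 (SE 0.95, edgeR adjusted p = 0.597), and -0.22 without it. WT replicate 3, the next in muscle markers at 4510 CPM, had the highest Chac1 of WT, at 6.147 CPM. SOD1G93A replicate 4, the third at 274.9 CPM, had 2.401 CPM, and Lepob/+ replicate 1, at 14.9 CPM of markers, had 8.347 CPM. The part of muscle RNA in the Chac1 level was not tested.

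Hspa5 (ENSMUSG00000026864, chr2:34771970-34777547, plus strand) encodes BiP, the main chaperone of the ER lumen. WT libraries had 292.8, 342.0, 206.4 and 372.0 CPM, and Lepob/+ libraries 326.8, 444.3, 253.2 and 367.6 CPM. SOD1G93A libraries had 308.3, 347.1, 142.8 and 330.0 CPM, and SOD1G93A-Lepob/+ libraries 391.6, 355.3, 180.4 and 383.0 CPM. By TMM-scaled CPM replicate 3 was the lowest library in each of the 4 genotypes, which share no more than a number in the labels. In Lepob/+ this rested on the scaling. In CPM of total counts its replicate 4, the library with muscle RNA, was lowest, at 243.6, under the 274.4 of replicate 3. Genotype means ran from 282.0 ± 94.2 CPM in SOD1G93A to 348.0 ± 79.8 CPM in Lepob/+, and the log2 fold changes lay between -0.10 and 0.22 (SE 0.30 each).

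Xbp1 (ENSMUSG00000020484, chr11:5520659-5525893, plus strand) encodes the transcription factor that IRE1 activates by splicing its mRNA, and counts per gene do not separate the spliced from the unspliced form. Its levels were 287.8, 240.8, 234.3 and 184.7 CPM in WT and 239.4, 237.5, 145.3 and 271.6 CPM in Lepob/+. SOD1G93A libraries had 152.8, 162.6, 227.5 and 188.1 CPM, and SOD1G93A-Lepob/+ libraries 307.2, 268.9, 216.4 and 298.3 CPM. In SOD1G93A-Lepob/+, 3 libraries were above all SOD1G93A libraries, and the fourth, replicate 3, was below the highest of them. The order of the means was SOD1G93A-Lepob/+ (272.7 ± 40.9 CPM), WT (236.9 ± 42.2), Lepob/+ (223.5 ± 54.4) and SOD1G93A (182.7 ± 33.3), and neighbours in that order overlapped.

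The log2 fold change of Xbp1 for SOD1G93A-Lepob/+ against SOD1G93A was 0.58 (SE 0.20, edgeR adjusted p = 0.261), and the interaction of both mutations was 0.66 (SE 0.29, edgeR adjusted p = 0.564). In the compared 8 libraries alone DESeq2 gave 0.57 and an adjusted p of 0.0334, in a fit that called 1771 genes. Among alternatives in edgeR the value for SOD1G93A-Lepob/+ against SOD1G93A was 0.45 with lymph node markers as a covariate (edgeR adjusted p = 1.00), and 0.71 without SOD1G93A replicate 3 (edgeR adjusted p = 0.0867). SOD1G93A replicate 3, the library of its genotype that is low in lymph node markers, had 227.5 CPM, inside the SOD1G93A-Lepob/+ range. A list of 7 markers of plasma cells, which use XBP1 for antibody secretion, summed to 64.29 to 128.5 CPM in SOD1G93A and 71.7 to 115.7 CPM in SOD1G93A-Lepob/+. Such a sum follows the most abundant markers. The mean log2 CPM of the list was 0.832 to 3.184 in SOD1G93A, lowest in replicate 3, and -0.281 to 1.572 in SOD1G93A-Lepob/+. A list of 7 mammary epithelium markers summed to 282.7 to 657.8 CPM in SOD1G93A and 330.3 to 1156 CPM in SOD1G93A-Lepob/+. Replicate 3 of SOD1G93A-Lepob/+ was lowest of its genotype in these markers and in Xbp1. In Lepob/+, replicate 3 was highest in these markers, at 677.6 CPM, and lowest in Xbp1. The part of plasma cells or mammary epithelium in Xbp1 was not tested.

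Dnajb9 (ENSMUSG00000014905, chr12:44205559-44210326, minus strand) encodes ERdj4, a cochaperone of BiP and target of XBP1. It was among the steady members apart from 1 library: WT had 33.24, 35.37, 29.75 and 32.63 CPM, and Lepob/+ had 32.58, 29.77, 32.52 and 68.61 CPM. SOD1G93A libraries had 32.76, 30.97, 38.50 and 30.45 CPM, and SOD1G93A-Lepob/+ libraries 34.58, 34.50, 36.14 and 40.78 CPM. Lepob/+ replicate 4 was 1.68 times the next highest library, and 1.15 times in CPM of total counts. The log2 fold change of Lepob/+ against WT was 0.32 (SE 0.22, edgeR adjusted p = 1.00), and -0.07 without that library.

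Herpud1 (ENSMUSG00000031770, chr8:94386438-94395377, plus strand) encodes a membrane protein of ER-associated degradation, which returns misfolded proteins to the cytosol. WT libraries had 56.76, 71.90, 50.13 and 74.44 CPM, and Lepob/+ libraries 67.74, 66.14, 82.12 and 172.8 CPM. SOD1G93A libraries had 70.18, 90.55, 69.92 and 69.67 CPM, and SOD1G93A-Lepob/+ libraries 70.60, 55.11, 85.19 and 76.37 CPM. The library with muscle RNA again stood highest, 1.91 times the next and 1.18 times in CPM of total counts. For Lepob/+ against WT the log2 fold change was 0.62 (SE 0.27, edgeR adjusted p = 1.00) with it and 0.17 without it. Atf4, Chac1, Dnajb9 and Herpud1, 4 of the 10 genes, had their highest TMM-scaled level in Lepob/+ replicate 4, as did 21.5% of all genes tested.

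**Figure D3:**
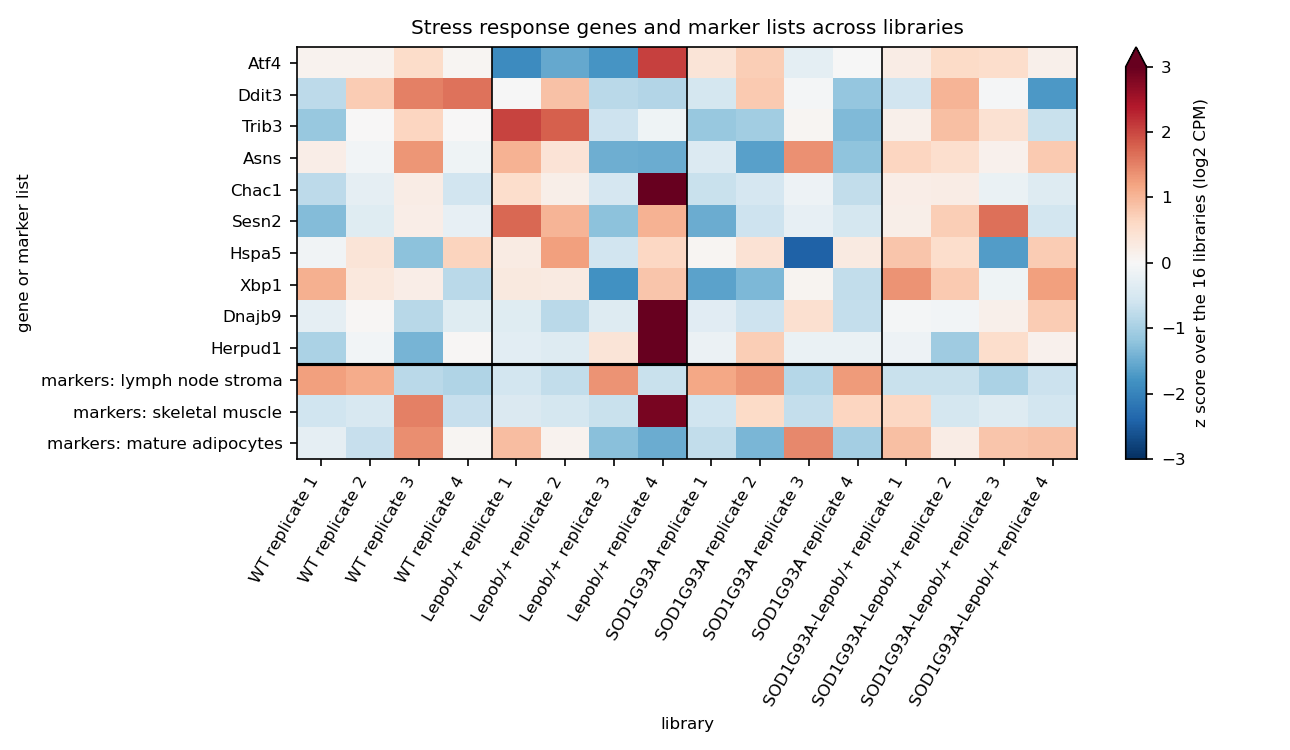
Z scores of log2 CPM over the 16 libraries (color, values over 3 drawn at 3) for the 10 genes and for the mean of 3 marker lists (rows), with libraries by genotype in columns. Lepob/+ replicate 4 is dark for Atf4, Chac1, Dnajb9, Herpud1 and the muscle markers. The 6 libraries high in lymph node markers have medians of 19.0 CPM for Sesn2 and 34.1 CPM for Asns, against 29.8 and 48.1 CPM in the other 10.

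Taking the 10 genes by comparison, 6 had a positive and 4 a negative log2 fold change in Lepob/+ against WT, with a median of 0.26 beside 0.03 over all genes. For SOD1G93A against WT it was 3 positive and 7 negative, with a median of -0.17 beside 0.02. SOD1G93A-Lepob/+ had 8 positive and 2 negative values against SOD1G93A, with a median of 0.26 beside 0.0005 over all genes. Against Lepob/+ the same genotype had 3 positive and 7 negative values, with a median of -0.09 beside -0.06. Against WT it had 9 positive values and 1 negative value, with a median of 0.16 beside 0.01. With single libraries left out, the median of SOD1G93A-Lepob/+ against WT stayed between 0.11 and 0.18, and the other medians moved by over 1.5 times. Lepob/+ against WT gave 0.04 without Lepob/+ replicate 4, with 5 positive and 5 negative values, and 0.16 without WT replicate 3. SOD1G93A against WT gave -0.27 without WT replicate 1 and -0.07 without WT replicate 3. SOD1G93A-Lepob/+ gave 0.40 against SOD1G93A without SOD1G93A replicate 3. Against Lepob/+ it gave -0.06, -0.007, -0.23 and -0.03 without Lepob/+ replicates 1 to 4 in turn. The largest sizes in pairs of genotypes outside Chac1 were 0.62 (Herpud1, Lepob/+ against WT) and 0.61 (Sesn2, SOD1G93A-Lepob/+ against SOD1G93A).

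**Figure D4:**
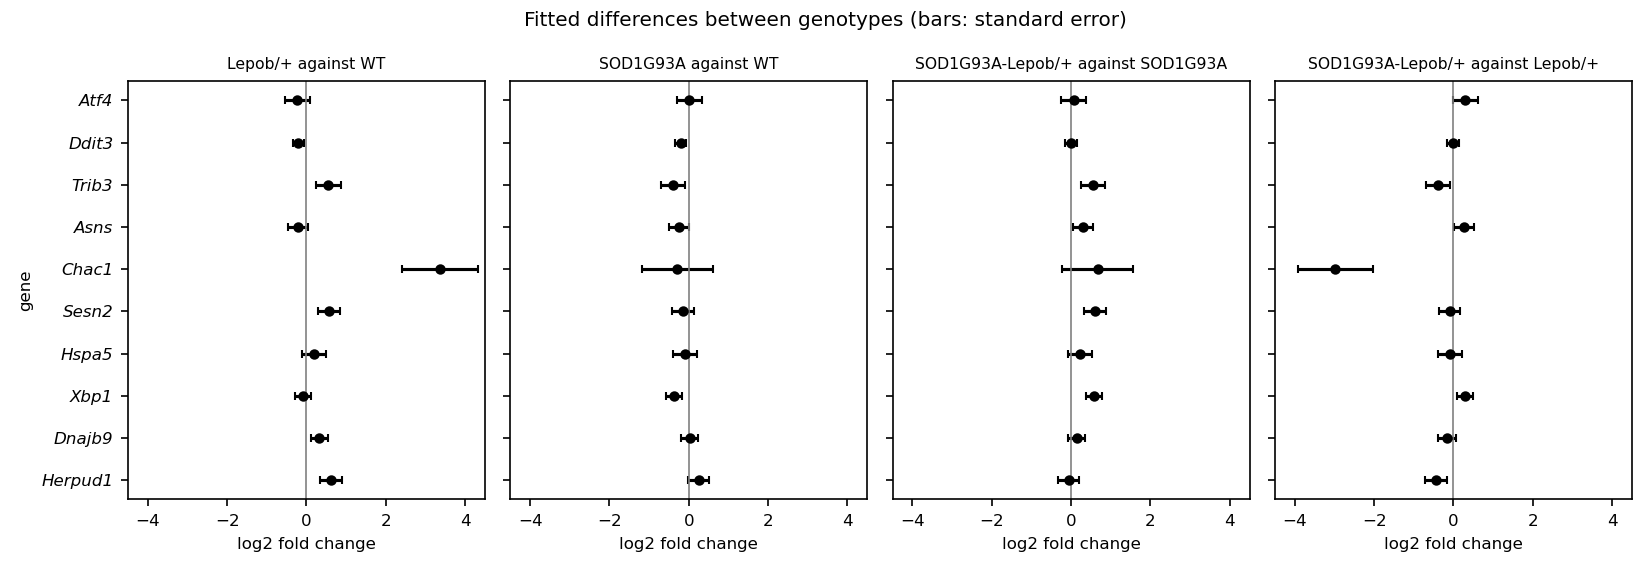
Log2 fold change with its standard error (points and bars, horizontal axis) for the 10 genes (vertical axis) in 4 comparisons of genotypes, from the fit of all 16 libraries. No value passes an adjusted p of 0.05, and Chac1 at 3.36 and -2.98 has the widest bars.

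The rest of both pathways was read from 9 lists with 121 genes, all of them tested, and edgeR called 0 of them at an adjusted p of 0.05 in each of the 6 comparisons. In Lepob/+ against WT, an unadjusted p under 0.05 was found for 6 of the 121, 4 with positive and 2 with negative values, beside 4.37% of all genes. The aminoacyl-tRNA synthetases, which charge tRNAs with amino acids and include ATF4 targets, had 13 of 13 values above 0, with a median log2 fold change of 0.23 beside 0.03 over all genes. Their smallest p were those of Lars (0.30, SE 0.13, edgeR adjusted p = 1.00) and Cars (0.34, SE 0.18, edgeR adjusted p = 1.00). Ddit4, an inhibitor of mTORC1 that stress and glucocorticoids induce, was 1.24 (SE 0.38, edgeR adjusted p = 1.00) and Bbc3, which encodes the cell death protein PUMA, was -0.57 (SE 0.25, edgeR adjusted p = 1.00). The paper, with DESeq2, named Ddit4 as the only upregulated gene of this comparison at a false discovery rate under 0.05. The lists were read here with edgeR only. In the list of ER-associated degradation, Sel1l, a subunit of the main ubiquitin ligase complex, was -1.001 (SE 0.40) and Derl3, a derlin of secretory cells, was 1.80 (SE 0.76), with an edgeR adjusted p of 1.00 for each.

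Part of these values rested on Lepob/+ replicate 4, the library with muscle RNA and a TMM factor of 0.664. Without it the synthetases had 4 of 13 values above 0 and 9 below, with a median of -0.05 beside 0.0018 over all genes, Lars was 0.11 and Cars 0.04. Then 3 of the 121 genes had an unadjusted p under 0.05, 1 with a positive and 2 with negative values. Ddit4 (1.22) and Sel1l (-1.02) kept their size without that library, while Bbc3 was -0.41 and Derl3 1.38. The lists were refitted without that library after their values had been seen.

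In SOD1G93A against WT, 1 of the 121 genes had an unadjusted p under 0.05, beside 2.56% of all genes. It was Ddit4, at 1.18 on the log2 scale (SE 0.38, edgeR adjusted p = 0.998). The list of bZIP partners and other ATF4 or CHOP targets had 14 of 18 values below 0, with a median of -0.28 beside 0.02 over all genes. Nupr1, a small stress-induced chromatin protein, was next by p in that list, at -0.51 (SE 0.27, edgeR adjusted p = 0.998).

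In SOD1G93A-Lepob/+ against SOD1G93A, an unadjusted p under 0.05 was found for 13 of the 121 genes, 6 with positive and 7 with negative values, beside 16.5% of all genes. The list of bZIP partners and other targets had 16 of 18 values above 0 and 4 at an unadjusted p under 0.05, with a median of 0.43 beside 0.0005. Nupr1 was 0.78 (SE 0.27, edgeR adjusted p = 0.261) and Stc2, the secreted stanniocalcin 2, was 0.90 (SE 0.32, edgeR adjusted p = 0.261). Amino acid genes were divided, with 2 higher and 5 lower at an unadjusted p under 0.05. Slc7a11, the cystine transporter, was -4.38 (SE 1.66, edgeR adjusted p = 0.261), while Slc3a2, the heavy chain it pairs with, was 0.27 (SE 0.10, edgeR adjusted p = 0.261). Of the 14 ER chaperones and disulfide isomerases, 12 had values above 0 with a median of 0.13, and the smallest p was that of Ero1lb, an oxidase of the ER of secretory cells, at -1.26 (SE 0.48, edgeR adjusted p = 0.261). The eIF2alpha kinases, phosphatase subunits and eIF2B had 0 of 12 genes at an unadjusted p under 0.05 and a median of -0.05. The same division of libraries by lymph node markers runs through this comparison, and its part in these lists was not tested.

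In SOD1G93A-Lepob/+ against Lepob/+, an unadjusted p under 0.05 was found for 8 of the 121 genes, 6 with positive and 2 with negative values, beside 8.24% of all genes. Stc2 was 0.73 (SE 0.32) and Nupr1 0.60 (SE 0.27), with an edgeR adjusted p of 0.602 for each. The aminoacyl-tRNA synthetases had 12 of 13 values below 0, with a median of -0.12 beside -0.06, and this comparison shares the Lepob/+ libraries with the one in which 13 of 13 were above 0. Derl3 was -1.83 (SE 0.76, edgeR adjusted p = 0.600). Without Lepob/+ replicate 4, 3 of the 121 genes had an unadjusted p under 0.05, all with positive values, and 11 of 13 synthetases were above 0, with a median of 0.10 beside -0.01 over all genes. Stc2 was then 0.56, Nupr1 0.41 and Derl3 -1.42. For the interaction of both mutations, 9 of the 121 genes had an unadjusted p under 0.05, beside 7.98% of all genes, and Ddit4 (-1.79, SE 0.54) and Nupr1 (1.11, SE 0.38) had the smallest p of the bZIP list, with an edgeR adjusted p of 0.564 for each. Without Lepob/+ replicate 4 it was 7 of the 121, with -1.77 for Ddit4 and 0.94 for Nupr1.

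The 10 genes did not vary as 1 block. Over the 45 pairs of genes the median Spearman rho of log2 CPM across the 16 libraries was 0.13, with 0.34 for the 15 pairs within the integrated stress response, 0.28 for the 6 pairs within the unfolded protein response and 0.11 for the 24 pairs between them. Trib3 and Sesn2 varied together, with r = 0.818 (permutation p = 0.00012, adjusted over 45 pairs 0.0054) and rho = 0.838 (permutation p = 0.00011, adjusted 0.00247). Without the 2 libraries farthest from the median of Trib3, r was 0.746. Within the 10 libraries low in lymph node markers r was 0.679, and within the 6 high ones 0.369, so the relation was weaker inside each set than over both. Chac1 followed Sesn2 (rho = 0.835, permutation p = 9e-05, adjusted 0.00247) and Trib3 (rho = 0.785, permutation p = 0.0005, adjusted 0.0075) by rank, but not by Pearson's r (0.562 and 0.325, adjusted permutation p = 0.131 and 0.5), and within the 10 libraries low in lymph node markers rho was 0.624 and 0.406.

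Atf4 mRNA did not follow the genes that ATF4 drives: its rho was 0.06 with Sesn2, -0.12 with Trib3, 0.20 with Chac1 and -0.24 with Asns, and none of these pairs passed the adjusted permutation test. In Lepob/+ replicates 1 and 2, where Atf4 was low, Trib3 had its 2 highest levels of all libraries. In Lepob/+ replicate 3, where Atf4 was also low (84.04 CPM), Trib3 was at 9.643 CPM, rank 11 from the highest. Dnajb9 and Herpud1 had r = 0.803 (adjusted permutation p = 0.131) and rho = 0.438 (adjusted permutation p = 0.381) over all libraries. Without the 2 libraries farthest from the median of Dnajb9 r was 0.186, so that Pearson's r rests on those libraries. Within the 10 libraries low in lymph node markers, which include Lepob/+ replicate 4, r was 0.913 and rho 0.794, and within the 6 high ones r was -0.341. By rank over the 16 libraries, the genes most like each member were mostly genes of other functions, given here as a description: Ctdspl (rho = 0.974) and Mgst1 (rho = 0.968) for Asns, Sh2d4a (rho = 0.944) and Kiss1r (rho = 0.938) for Trib3, Prps1 (rho = 0.953) for Sesn2, Coro6 (rho = 0.941) for Chac1 and Nudt3 (rho = 0.874) for Atf4. Hsph1, a cytosolic chaperone of the heat shock response, was among those most like Herpud1 (rho = 0.832). These libraries share tissue content and depth, which such likeness includes.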

How the data were processed

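Counts per gene were deposited by the authors as raw whole-number counts for 16 libraries, without normalization. Per the study's methods and the submitters' processing notes, reads were trimmed with fastp, aligned to mm10 with HISAT2 2.1.0 and counted with featureCounts 2.0.2, and only uniquely mapped reads were kept. The strand setting and annotation release are not given in the sources used here, so a gene and an antisense neighbour cannot be told apart. Of 54752 gene IDs, 54723 were paired with symbols from GENCODE M21 (GRCm38), which also gave coordinates and exon lengths. Of the 54752 IDs 204, the second Ddit3 ID among them, have exactly 1 count in every library.

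Counts were fitted in R 4.3.3 with edgeR 4.0.16 (filterByExpr with min.count 10 and min.total.count 15, TMM, robust quasi-likelihood F test, all 16 libraries in 1 fit with genotype as the only term), and 19736 genes were tested. Benjamini-Hochberg adjustment was made over all genes of a comparison, with a threshold of 0.05. CPM are TMM-scaled, FPKM are CPM per kilobase of exon, fold changes used a prior count of 1, and SE is the fold change over the square root of F. DESeq2 1.42.0, the authors' tool, other scalings and filters, and sets of libraries were alternatives. The fit was also run on simulated counts with changes planted in SOD1G93A-Lepob/+. These counts held no library with muscle RNA, no lymph node split and no library of the other sex. They cannot show how the fit handles such content. Totals were 36.8 to 61.9 M counts per library. The study's methods give 4 mice per genotype, and replicate pairs differed beyond sampling noise (chi-square per degree of freedom 46.4 to 1243.3 over 24 pairs). Samples were grouped by the genotype in their labels. Same-numbered libraries did not deviate together in a common direction (residual correlation over 0.1 in 5 of 24 pairs and under -0.1 in 8), so no pairing was used. Single pairs did deviate, from -0.6944 (Lepob/+ and SOD1G93A replicate 3) to 0.5195 (WT and SOD1G93A replicate 3). WT and SOD1G93A replicates 1 and 2 had 0.4125 and 0.407. In replicates 1 to 3, WT and SOD1G93A lay on the same side of the split by lymph node markers. The 10 genes, the pathway lists, the marker lists and the alternatives were chosen with earlier results of these data known. Named pathway genes are the 2 of a list with the smallest p in a comparison, and genes most like a member are those with the highest rho. The search for ERSE-II and the count of genes split like Atf4 were added after values had been seen. Correlations used 100000 permutations of the libraries, two-sided.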

Additional observations from a re-analysis of the deposited data

Results flagged for a closer look

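A sample far from the other 3 of its genotype was looked for in 40 groups (10 genes in 4 genotypes) with Dixon's ratio, the gap to the nearest sample over the whole range of log2 CPM and set against its 95% critical value for 4 samples. Chance flags about 1 in 20 groups, and 6 of 40 were over the limit. Lepob/+ replicate 4, the library with muscle RNA, was high for Atf4 (ratio 0.911) and for Dnajb9 (0.892). Replicate 3 was low for Hspa5 in SOD1G93A (0.867) and in SOD1G93A-Lepob/+ (0.874). The latter library is the one that lacks Xist. Atf4 was high in WT replicate 3 (0.913), the library with the second most muscle RNA, although its 171.6 CPM lie close to the 147.7 to 149.7 CPM of the others, which had an unusually small range. Herpud1 was high in SOD1G93A replicate 2 (0.973), at 90.55 CPM against 69.67 to 70.18 CPM. The causes of these values were not tested.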

How the results depend on the processing

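Of 674 log2 fold changes of the 10 genes recomputed under alternatives, 632 kept their direction, 42 turned and 2 came past the threshold; values that turned were at most 0.6656 in size with all libraries (Chac1, SOD1G93A-Lepob/+ against SOD1G93A) and at most 0.2526 after turning (the same value with the lymph node covariate). The replicate number as a block called 0 genes and 0 members in each comparison, and left 1 member (in SOD1G93A-Lepob/+ against SOD1G93A) at an unadjusted p under 0.05. Turned values for SOD1G93A against WT were, for Atf4, -0.0024 with DESeq2 size factors, -0.0123 with the stricter filter, -0.0107 without both libraries that stand apart (Lepob/+ replicate 4 and SOD1G93A-Lepob/+ replicate 3), -0.0366 with edgeR and -0.0081 with DESeq2 on the compared genotypes; for Dnajb9 -0.0255 with edgeR on the compared genotypes; and with the lymph node covariate 0.0528 for Chac1 and 0.0343 for Sesn2. With that covariate, SOD1G93A-Lepob/+ against SOD1G93A gave -0.0758 for Atf4, -0.0245 for Asns and -0.2526 for Chac1. Without both libraries that stand apart, Dnajb9 was -0.0665 for Lepob/+ against WT, and Hspa5 was 0.1512 and Dnajb9 0.2189 for SOD1G93A-Lepob/+ against Lepob/+.

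With 1 library left out at a time, log2 fold changes that turned ranged as follows. For Lepob/+ against WT, Xbp1 ranged from -0.2113 to 0.0629 and Dnajb9 from -0.0664 to 0.444. For SOD1G93A against WT, Atf4 ranged from -0.0838 to 0.0615, Chac1 from -0.5105 to 0.0525, Hspa5 from -0.2511 to 0.0956 and Dnajb9 from -0.0819 to 0.0509. For SOD1G93A-Lepob/+ against SOD1G93A, Ddit3 ranged from -0.1048 to 0.0744 and Herpud1 from -0.1555 to 0.044. For SOD1G93A-Lepob/+ against Lepob/+, Ddit3 ranged from -0.1117 to 0.0676, Sesn2 from -0.3096 to 0.0758, Hspa5 from -0.2061 to 0.1151, Dnajb9 from -0.2873 to 0.2116 and Herpud1 from -0.582 to 0.0006.

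Genes called by edgeR with 1 library left out ranged from 0 to 1 for SOD1G93A against WT, 0 to 3 for SOD1G93A-Lepob/+ against SOD1G93A, 0 to 2 against Lepob/+ (members from 0 to 1, Atf4 without Lepob/+ replicate 4), 0 to 2 against WT and 0 to 2 for the interaction. Without both libraries that stand apart 2 genes were called for SOD1G93A-Lepob/+ against each of SOD1G93A, Lepob/+ and WT, and edgeR on the compared genotypes called 2 against SOD1G93A and 2 against WT. DESeq2 on all libraries called 1 (Lepob/+ against WT), 3 (SOD1G93A against WT), 562, 70 and 44 genes (SOD1G93A-Lepob/+ against SOD1G93A, Lepob/+ and WT) and 51 for the interaction. On the compared genotypes it called 5, 14, 1771, 35 and 350 genes, with 1 member, Xbp1, among the 1771. DESeq2 gave Chac1 no adjusted p in the fit of all libraries or in pairs with Lepob/+, and the cause of the gap between tools was not tested. Chac1, at 104 to 415 counts outside Lepob/+ replicate 4, is the member that depth limits most.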
